A study of Mus musculus with 46 samples.

Results

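Pax6, Paupar and Tbr1 are 3 genes of mouse chromosome 2, out of 56854 genes present in both count tables of the study, and their RNA was followed in 46 synovial sarcomas of 6 genotype groups. The 3 genes were chosen by a measured result, since Paupar and Tbr1 were low after Pbrm1 disruption in one of the mouse backgrounds, and Pax6 was taken beside them. Values from that contrast are therefore given as a description with no test. The tumours of the other background were not used in the choice and carry the tests.

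Synovial sarcoma is driven by a fusion of SS18 to an SSX gene, and the fusion protein enters BAF-family chromatin remodelling complexes. All mice carried a human fusion gene under control of Rosa26 that Cre switches on, SS18::SSX2 in the hSS2 background and SS18::SSX1 in the hSS1 background, and tumours were started by injection of TATCre protein into the hindlimb at 8 days of life. The hSS2 groups were control tumours with the fusion alone (n = 13) and tumours that also carried floxed alleles of Pbrm1 (n = 8), Arid1a (n = 8) or Arid1b (n = 8), and the hSS1 groups were control (n = 5) and Pbrm1-fl (n = 4). The protein made from Pbrm1 belongs to PBAF, one of the BAF-family complexes, whereas those made from Arid1a and Arid1b take each other's place in canonical BAF. Whole tumours of males and females were sequenced, so the libraries also hold RNA of cells that never recombined, and fewer cells of a type cannot be told apart from less RNA per cell.

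Pax6 encodes a paired-box and homeobox transcription factor that directs eye, forebrain and pancreas development. Paupar is a long noncoding RNA made from the strand opposite to Pax6, upstream of it, and is known in neural cells as a regulator of genes that PAX6 also binds. Tbr1 encodes a T-box factor of early-born glutamatergic neurons of the cortex, where progenitors pass from Pax6 through Eomes to Tbr1.

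Positions are those of GRCm38 with the GENCODE M21 annotation. Pax6 (ENSMUSG00000027168) lies at chromosome 2, 105668900 to 105697364, on the + strand. Paupar (ENSMUSG00000102424) is a single-exon lincRNA of 3482 bases at 105657862 to 105661343 on the - strand, and its 5′ end is 7557 bases upstream of the Pax6 start. The antisense gene Pax6os1 (ENSMUSG00000086029), at 105536080 to 105670330 on the - strand, spans Paupar with an intron and starts 1430 bases inside Pax6. Tbr1 (ENSMUSG00000035033) lies at 61802930 to 61814114 on the + strand of the same chromosome, 43.9 Mb from Pax6.

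**Figure D1:**
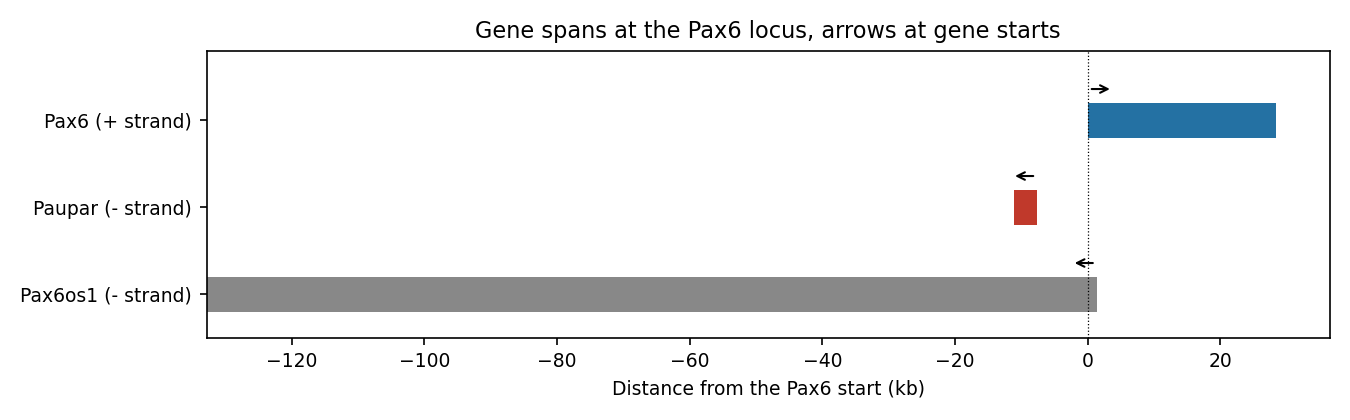
Gene spans at the Pax6 locus in kb from the Pax6 start, with an arrow at each gene's start in the direction of transcription. Paupar lies 7557 bases upstream of Pax6 on the other strand and inside the span of Pax6os1, which overlaps the first 1430 bases of Pax6.

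Bases before annotated transcript starts of the coding genes are shown because Pax6 and Paupar, unlike Tbr1, are transcribed away from each other out of the same neighbourhood. The windows are from RefSeq (GRCm38.p6, + strand), which had 2 entries for Pax6 and 1 for Tbr1. Paupar was not matched. Only bases upstream of a coding transcript start are printed, chr2:105668646-105668899 for Pax6 and chr2:61804203-61804452 for Tbr1. The Pax6 bases end where the gene span begins, whereas those of Tbr1 lie inside its span, in an exon of a noncoding transcript that starts farther upstream in GENCODE. Capitals mark TGACGTCA, the letters of a full cAMP response element, and CCAAT in Pax6, and TAATTA, a homeodomain core, in Tbr1.
Pax6: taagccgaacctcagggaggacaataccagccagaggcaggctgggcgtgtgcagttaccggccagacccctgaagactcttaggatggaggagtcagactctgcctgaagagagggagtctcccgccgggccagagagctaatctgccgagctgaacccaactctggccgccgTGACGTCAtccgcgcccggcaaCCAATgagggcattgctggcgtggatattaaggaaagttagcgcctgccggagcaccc
Tbr1: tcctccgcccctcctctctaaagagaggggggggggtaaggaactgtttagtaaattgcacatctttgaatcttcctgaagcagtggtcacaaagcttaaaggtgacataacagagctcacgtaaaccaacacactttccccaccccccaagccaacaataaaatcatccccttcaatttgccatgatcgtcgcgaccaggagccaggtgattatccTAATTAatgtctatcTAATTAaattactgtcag

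Each motif was searched on both strands of the whole 300-base window, and none of the marked motifs overlaps another. TGACGTCA was present in 1.79% of 32851 such windows, and it occurred once in the Pax6 window and not in that of Tbr1. TAATTA was present in 5.29% of windows and occurred at 2 places in that of Tbr1 and nowhere in that of Pax6. CCAAT, which 37.4% of windows hold, occurred once in each, in Tbr1 beyond the printed bases. The T-box letters AGGTGTGA, found in 1.28% of windows, were in neither. TATAAA (13.6% of windows) was in neither, and CANNTG (72.3%) and GGGCGG (35.7%) each occurred once in that of Tbr1 and not in that of Pax6. These statements for Pax6 are for the window at its first start, and the second Pax6 window held a single CANNTG and no other motif. The first Pax6 window held 18 CpG dinucleotides and that of Tbr1 held 7, against a median of 7.

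Library totals ran from 10.1 to 21.3 M counts. The targeted transcripts were lower in hSS2 Pbrm1-fl (log2 difference -1.27, SE 0.09, adjusted p = 4.2e-12) and Arid1a-fl tumours (-0.95, SE 0.13, adjusted p = 7.01e-05), and did not pass in hSS2 Arid1b-fl (-0.80, SE 0.19, adjusted p = 0.145) or hSS1 Pbrm1-fl (-0.75, SE 0.24, adjusted p = 0.193). All p-values of single genes are from edgeR's quasi-likelihood test with Benjamini-Hochberg adjustment over all tested genes, 20083 in hSS2 and 17786 in hSS1, with a threshold of 0.05. Counts cover whole genes, also exons outside the floxed part. Levels are CPM, a gene's counts scaled to the total of its library. The mice of each floxed group fell in 1 range of mouse numbers (under 1000, 1000 to under 2000, or 2000 and over), which may mark a batch, and the hSS2 Pbrm1-fl tumours shared theirs (2000 and over) with 4 of the 13 hSS2 controls. The hSS1 Pbrm1-fl tumours shared theirs (1000 to under 2000) with 3 of the 5 hSS1 controls.

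The 3 genes differed widely in abundance. Pax6 reached a total of 28809 counts over the 46 libraries and at least 4 in each. Paupar had 826 counts and Tbr1 565, so a single tumour often gave fewer than 10 reads of either. Pax6 varied from 0.315 to 286 CPM between tumours, Paupar from 0 to 7.31 and Tbr1 from 0 to 7.22. The value of a library at 0 or with few reads is limited by counting, and 3 counts, the limit that a count of 0 allows, correspond to 0.141 to 0.296 CPM here.

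**Figure D2:**
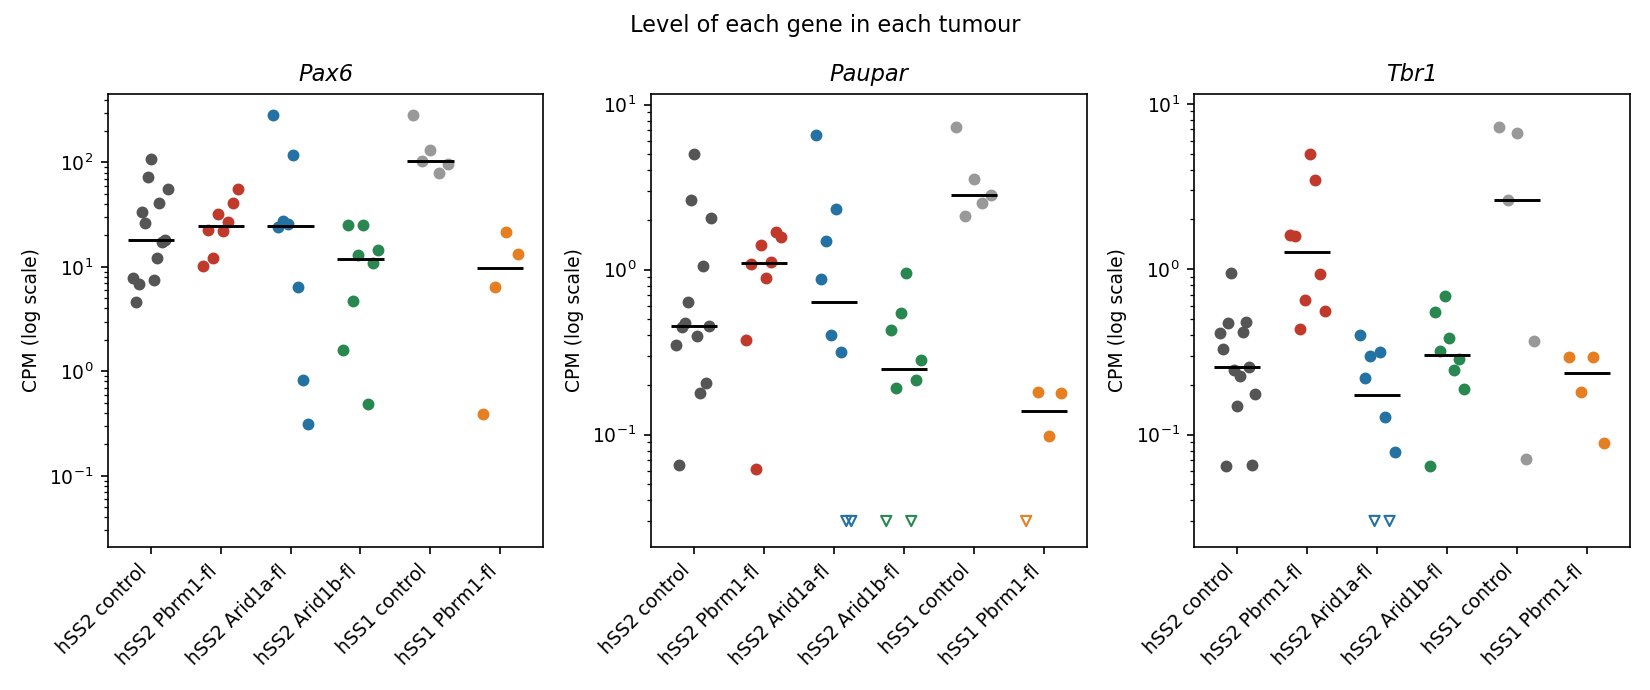
CPM of Pax6, Paupar and Tbr1 (log axis) in each of 46 tumours by group. Points are tumours, open triangles at the foot are tumours with 0 counts, and bars are medians, of which the hSS1 control median of 104 CPM for Pax6 stands above the other groups' medians of 9.86 to 24.8 CPM.

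By median, Pax6 was highest in hSS1 control (104 CPM), followed by hSS2 Arid1a-fl (24.8), hSS2 Pbrm1-fl (24.8), hSS2 control (18.01), hSS2 Arid1b-fl (11.9) and hSS1 Pbrm1-fl (9.86). The hSS2 groups overlapped, and no pair of them passed the test after adjustment. hSS1 and hSS2 were counted in separate tables, so their levels stand side by side without a test. Paupar followed a like order, with medians of 2.84 CPM in hSS1 control, 1.10 in hSS2 Pbrm1-fl, 0.640 in Arid1a-fl, 0.458 in hSS2 control, 0.249 in Arid1b-fl and 0.138 in hSS1 Pbrm1-fl. Tbr1 was ordered differently. Its medians were 2.61 CPM in hSS1 control, 1.27 in hSS2 Pbrm1-fl, 0.305 in Arid1b-fl, 0.257 in hSS2 control, 0.237 in hSS1 Pbrm1-fl and 0.173 in Arid1a-fl.

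In the hSS1 background, which chose the genes, Pax6 had 3209, 1281, 1525, 1113 and 1049 counts in control tumours 1 to 5. In Pbrm1-fl tumours 1 to 4 it had 4, 71, 220 and 149 counts. The groups do not overlap, and Pbrm1-fl tumour 1 was nearly empty of Pax6 reads. Paupar had 82, 26, 41, 36 and 31 counts in the controls and 0, 2, 1 and 2 in the Pbrm1-fl tumours, again without overlap. Of the 17786 tested genes, 3.59% had every Pbrm1-fl CPM below every control CPM. Counts pooled over each group, relative to pooled library totals, were 13.1-fold lower for Pax6 (95% interval 11.9 to 14.4) and 30.7-fold lower for Paupar (12.9 to 95.5), intervals that cover counting error only. On the log2 scale of the fit the differences were -3.71 (SE 0.89) and -4.85 (SE 0.67). The same contrast called 1 gene, or 0.00562% of those tested, and it was chosen for these genes, so nothing is read from that share.

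Tbr1 in hSS1 split the control group. Control tumours 1, 2 and 3 had 81, 32 and 77 counts, whereas controls 4 and 5 had 1 and 4. Pbrm1-fl tumours 1 to 4 had 3, 2, 3 and 1 counts, so the groups overlap at the low end. The pooled level was 15.4-fold lower in Pbrm1-fl (7.94 to 34.2, counting error only), a ratio that rests on the 3 high controls. Controls 1 and 2 had mouse numbers of 2000 and over. Controls 3, 4 and 5 and all 4 Pbrm1-fl tumours were in the range of 1000 to under 2000, where control 3 alone was high. With all 9 tumours Tbr1 was too low for the count filter in this background, so no fitted difference is given. The Pbrm1 transcript itself ranged from 98.2 to 253 CPM in these Pbrm1-fl tumours and from 278 to 356 CPM in the controls. In Pbrm1-fl tumours 1 to 4 it was at 215, 253, 98.2 and 224 CPM. Tumour 3, the lowest in Pbrm1, held the most Pax6 of these 4 tumours. A relation between the levels of Pbrm1 and Pax6 was not tested.

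The high hSS1 controls were the same 3 tumours for several genes of the neurogenic sequence, but not every gene of it was low in Pbrm1-fl tumours. The proneural factor gene Neurog1 had 27.1, 51.1 and 46.9 CPM in controls 1, 2 and 3 and 0.637 and 0.917 in controls 4 and 5. Neurod1, which acts after the neurogenins, had 62.8, 75.7 and 53.2 CPM in the first 3 and 0.354 and 0 in the other two. Neurod6, a gene of differentiating cortical neurons, had 73, 76 and 60 counts in controls 1, 2 and 3 and 0 counts in each of the other 6 hSS1 tumours. In Pbrm1-fl tumours, Neurog1 lay between 0.487 and 0.998 CPM and Neurod1 between 0.0975 and 0.267. Neurod2 was also highest in controls 1, 2 and 3 (10.4 to 17.5 CPM), yet Pbrm1-fl tumours 3 and 4 held 9.77 and 3.74 CPM, above the 0.920 and 0.550 of controls 4 and 5. Eomes reached 13.5 CPM in Pbrm1-fl tumour 4, above all 5 controls (1.98 to 9.18 CPM), and was between 0.0975 and 1.28 in the other 3. Of the 19 tested genes of the cortical list, 9 had a fitted difference above 0 and 10, Pax6 among them, below. The genes named here were picked after their values were seen and were not tested. Pax6 and Paupar did not follow the split, since controls 4 and 5 held 78.8 and 96.2 CPM of Pax6 and 2.55 and 2.84 CPM of Paupar.

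In hSS2, Tbr1 was higher in Pbrm1-fl tumours, and Pax6 and Paupar did not pass the test. Tbr1 had 17, 28, 7, 12, 78, 53, 15 and 11 counts in the 8 Pbrm1-fl tumours, against 1 to 18 with a median of 5 in the 13 controls. In CPM the Pbrm1-fl tumours ran from 0.434 through a median of 1.27 to 4.98, and controls from 0.0642 through 0.257 to 0.952. All 8 lay above the control median and 4 lay above every control. Tbr1 passed the count filter in hSS2 mainly through the Pbrm1-fl tumours, where it was high. Its tests below are therefore those of a gene let in by the group found higher. The log2 difference was 2.37 (SE 0.46, 95% interval 1.47 to 3.28), 5.18-fold, with an adjusted p of 0.00132 from edgeR, in a comparison in which 7.35% of tested genes were called. A two-sided exact permutation test of mean log2 CPM gave p = 0.000187, or 0.00168 after adjustment over 18 tests. Against the 4 controls of the same mouse number range the difference was 2.71 (adjusted p = 0.0430). Without Pbrm1-fl tumours 5 and 6, which held the most reads, it was 1.51 (adjusted p = 0.0503), a setting added after the values were seen.

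Tbr1 in hSS2 Pbrm1-fl tumours was also above the other floxed groups, with the same limit from the count filter. Against Arid1a-fl tumours, which ran from 0 to 0.399 CPM, the difference was 3.23 (SE 0.58, adjusted p = 0.000351), with 12.3% of genes called. No Pbrm1-fl tumour reached as low as the highest Arid1a-fl tumour, a separation in this direction that 0.906% of tested genes had. Against Arid1b-fl tumours, which ran from 0.0641 to 0.688 CPM, it was 2.29 (SE 0.54, adjusted p = 0.0111), with 4.37% of genes called. Without Pbrm1-fl tumours 5 and 6 this last difference was 1.43 (adjusted p = 0.143). The floxed gene and the mouse number range coincide in both comparisons and cannot be told apart.

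Tbr1 in Arid1a-fl and Arid1b-fl tumours did not pass against control. The log2 differences were -0.85 (95% interval -1.91 to 0.20, adjusted p = 0.334) for Arid1a-fl, where 3.17% of genes were called, and 0.08 (-0.91 to 1.07, adjusted p = 0.996) for Arid1b-fl, where 0.0548% were called. Between Arid1a-fl and Arid1b-fl it was -0.93 (-2.09 to 0.22, adjusted p = 0.510), with 0.0996% of genes called. Most of these libraries held fewer than 8 reads of Tbr1.

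**Figure D3:**
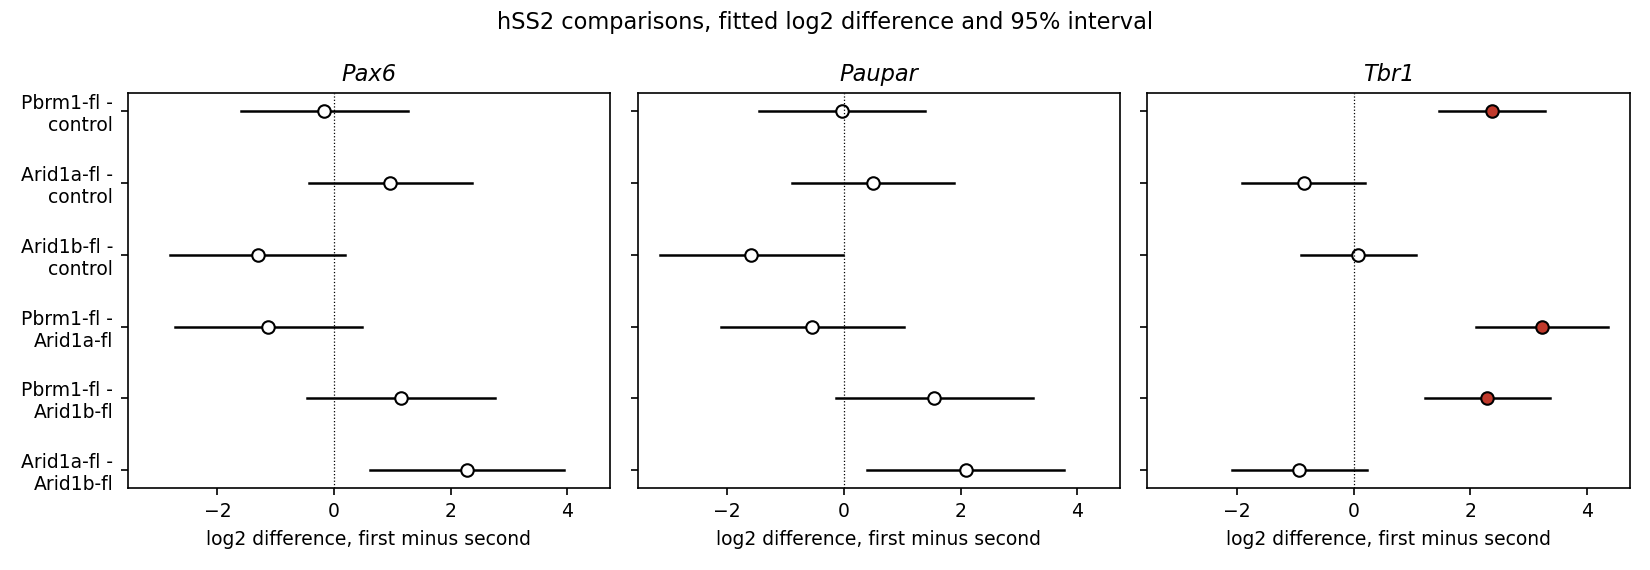
Fitted log2 difference (first group minus second) with its 95% interval for Pax6, Paupar and Tbr1 in 6 hSS2 comparisons, filled where the adjusted p passes 0.05. The 3 filled points are the Tbr1 differences of 2.37, 3.23 and 2.29 that involve Pbrm1-fl tumours, and the intervals of Pax6 and Paupar are wide.

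Pax6 in hSS2 ran from 10.3 through 24.8 to 55.7 CPM in Pbrm1-fl tumours and from 4.59 through 18.01 to 107 CPM in controls, so the Pbrm1-fl tumours sat inside the control range. The log2 difference was -0.16 (95% interval -1.59 to 1.26, adjusted p = 0.921). Arid1a-fl tumours spread far more, from 0.315 to 284 CPM, with 2 tumours above and 2 below every control. Their fitted difference was 0.96 (-0.43 to 2.36, adjusted p = 0.417), and -0.12 without tumour 1, which alone held 4976 of the group's 8225 counts. Mean log2 CPM differed by -0.59. Arid1b-fl tumours ran from 0.489 through 11.9 to 25.3 CPM, with a difference of -1.31 (-2.81 to 0.19, adjusted p = 0.806). The 3 comparisons between floxed groups gave adjusted p from 0.268 to 0.4997, the largest difference being 2.27 (SE 0.85) for Arid1a-fl over Arid1b-fl, whose unadjusted 95% interval of 0.62 to 3.93 leaves out 0.

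Paupar repeated this layout at a lower level. It ran from 0.0620 to 1.69 CPM in Pbrm1-fl tumours and from 0.0656 to 5.04 in controls, with a log2 difference of -0.03 (-1.46 to 1.39, adjusted p = 0.984). The Arid1a-fl difference was 0.51 (-0.88 to 1.90, adjusted p = 0.689) and that of Arid1b-fl -1.59 (-3.16 to -0.01, adjusted p = 0.801). The last interval leaves out 0, though the unadjusted p from edgeR was 0.0562. Arid1a-fl tumours 7 and 8, the lowest in Pax6 with 12 and 4 counts, had 0 Paupar counts, and Arid1a-fl tumour 1, the highest in Pax6, had 115. Against the 4 controls of the same mouse number range the hSS2 Pbrm1-fl differences were -0.77 for Pax6 (adjusted p = 0.834) and -0.98 for Paupar (adjusted p = 0.736), lower than against all controls and not past the test. The difference between the backgrounds was not tested, because hSS1 chose the genes.

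Pax6 and Paupar varied together among hSS2 tumours of one group. After each group's mean log2 CPM was subtracted, Pearson's r over the 37 tumours was 0.896 and Spearman's rho 0.894, with a permutation p of 1e-05, the smallest that 100000 resamples allow (3e-05 after adjustment over 3 pairs). Without the 2 tumours farthest from the Pax6 median r was 0.874. Within the 4 groups r lay between 0.853 and 0.967, and within the 3 mouse number ranges between 0.858 and 0.944. For Tbr1 the relations did not pass. Its r was 0.311 with Pax6 and 0.319 with Paupar (permutation, adjusted p = 0.0592 for each; rho 0.261 and 0.325, adjusted p = 0.127 and 0.0921), and r was 0.238 and 0.337 without the 2 farthest tumours. With a prior count of 0.5 in place of 2 the relation of Paupar and Tbr1 passed (r 0.411, permutation adjusted p = 0.0399). In controls both were below 0 (-0.02 and -0.25), and in Arid1a-fl tumours they were 0.702 and 0.844.

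**Figure D4:**
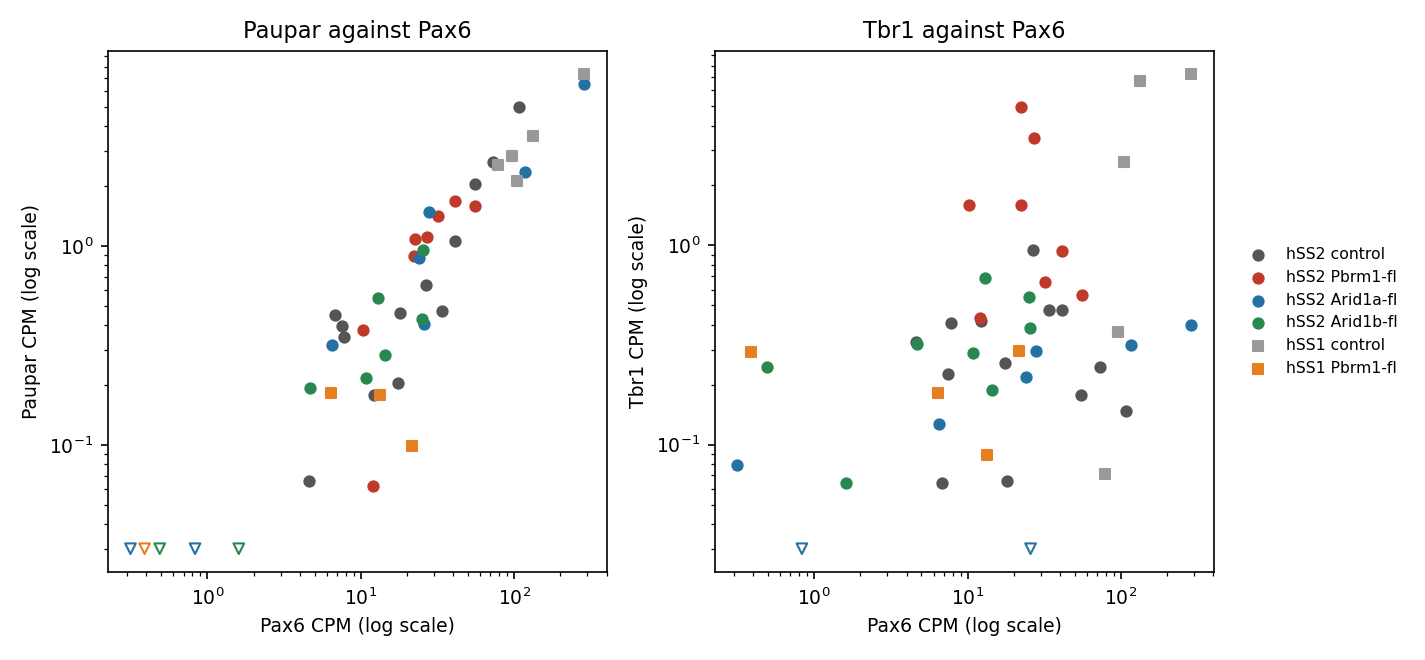
CPM of Paupar (left) and Tbr1 (right) against Pax6 in each tumour, both axes logarithmic, circles for hSS2 and squares for hSS1, open triangles for 0 counts. Paupar rises along with Pax6 over the hSS2 tumours (r 0.896 after centring by group), and Tbr1 shows no such line (r 0.311).

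Pooled over all tumours, 2.87 Paupar counts were seen per 100 Pax6 counts, or 9.63 per 100 when each is divided by its exon length. Among the 38 tumours with at least 100 Pax6 counts the ratio had a median of 2.90 and a range of 0.455 to 6.60. The 2 hSS1 Pbrm1-fl tumours with enough Pax6 counts gave 0.455 and 1.34, and the 5 hSS1 controls 2.03 to 3.23. These are ratios of 1 or 2 Paupar reads in the first case. Pax6os1, whose first exon overlaps Pax6 and whose reads depend on a strand setting that is not stated, had 1.97 counts per 100 of Pax6.

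Of 16 other annotated genes that start within 500 kb of Pax6, 6 were tested, Paupar included, and none was called in any hSS2 comparison by edgeR, with at most 1 at an unadjusted p under 0.05. Over the 37 hSS2 tumours, group-centred r with Pax6 was 0.822 for Pax6os1, 0.196 for Rcn1, 0.194 for Elp4, 0.189 for Dnajc24 and -0.03 for Immp1l. Of the genes within 500 kb of Tbr1, Psmd14 and Tank were tested. Neither was called, none had an unadjusted p under 0.05 in hSS2, and r with Tbr1 was 0.223 and 0.285.

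Of 17284 genes with a mean of at least 1 CPM, the 5 with the highest group-centred r with Pax6 over the hSS2 tumours were Sox3 (0.846), Prrg4 (0.832), Kbtbd11 (0.814), Sel1l3 (0.802) and Gca (0.800). Prrg4 lies on the same chromosome as Pax6, at 104830741 to 104849876. Sox3 encodes a SOXB1 factor of neural progenitors. For Paupar they were Plcxd2 (0.817), Gca (0.798), Sox3 (0.787), Msi1 (0.759), which encodes an RNA-binding protein of neural stem cells, and Irs2 (0.751), an adaptor of insulin signalling. Gca and Sox3 were on both lists. For Tbr1 the values were lower, led by Gm9929 (0.613), Igfbp3 (0.610), Esx1 (0.598), Npm2 (0.586) and Doc2b (0.582). In the 9 hSS1 tumours r with Pax6 was 0.662 for Sox3, 0.828 for Prrg4 and 0.171 for Gca. These values share libraries and depth and are given as a description.

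Of 21 tested genes of the cortical glutamatergic sequence in hSS2, 2 rose in Pbrm1-fl against control, Tbr1 and Neurod2, a factor of differentiating neurons (1.45, SE 0.44, adjusted p = 0.0362, and 1.05, adjusted p = 0.493, against controls of the same mouse number range), a count near the 7.35% called over all genes (3.40% higher). The median log2 difference was 0.16 against -0.004 over all genes. Tbr1 is counted here and in the comparisons with Arid1a-fl and Arid1b-fl below, with its limit from the count filter. Eomes, which precedes Tbr1 in the cortex and is named here after its values were seen, was at 24.4 ± 11.8 CPM (SD, n = 8) against 8.60 ± 12.3 (n = 13) and did not pass (1.47, SE 0.83, adjusted p = 0.299). Against Arid1a-fl, 6 of the 21 were higher in Pbrm1-fl, beside 12.3% of all genes called and 6.79% higher. Among the 6 were Tbr1, Neurod2 (2.40, SE 0.52, adjusted p = 0.00259), Emx2 (1.92, SE 0.62, adjusted p = 0.0376) and Sstr2 (2.94, SE 0.89, adjusted p = 0.0254). Against Arid1b-fl, where 4.37% of all genes were called, 3 of the 21 were. Tbr1 and Emx2 (2.24, SE 0.63, adjusted p = 0.0329) were higher and Neurog2 (-2.16, SE 0.62, adjusted p = 0.0361) lower in Pbrm1-fl. The same genes leaned low in Arid1a-fl against control, with 16 of 21 below 0 and a median of -0.67 (-0.04 over all genes). Of the 21, 1 was called, lower, and 8 were at an unadjusted p under 0.05, beside 637 and 4621 of all 20083 genes. Against controls of the same mouse number range the median was -0.40 and 0 were called. None was called in Arid1b-fl against control by edgeR, with 2 at an unadjusted p under 0.05 (1250 of all 20083 genes). The 19 genes tested in hSS1 include Pax6, and that contrast chose the 3 genes, so no count of calls is given for it.

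Of 13 tested T-box genes, Tbr1 included, 4 rose in hSS2 Pbrm1-fl tumours and none fell, with a median of 0.85. Over all genes 7.35% were called and 3.40% were higher. The count and the median include Tbr1, which the count filter let in mainly through these same tumours. The called genes other than Tbr1 were Tbx2 (1.08, SE 0.26, adjusted p = 0.00995), Tbx5 (3.001, SE 0.93, adjusted p = 0.0410) and Tbx20 (3.19, SE 0.85, adjusted p = 0.0182), factors known from limb and heart development. Against controls of the same mouse number range Tbr1 alone of the 13 passed, and 2.38% of all genes did, while the differences of Tbx2, Tbx5 and Tbx20 were 1.12, 3.44 and 4.08 with adjusted p of 0.139, 0.282 and 0.122. In Arid1a-fl tumours Tbx18 rose (2.41, SE 0.70, adjusted p = 0.0487), and was at 2.07 (adjusted p = 0.179) against controls of the same range. It was the 1 called gene of the 13, beside 3.17% of all genes called and 1.41% higher. The family leaned the other way in Arid1a-fl, with 11 of the 13 below 0 and a median of -0.48. Among the relatives of Pax6, 2 of 7 rose in Pbrm1-fl tumours (3.40% of all genes did), Pax1 (2.61, SE 0.81, adjusted p = 0.0411) and Pax9 (3.79, SE 0.92, adjusted p = 0.00914), both factors of the axial skeleton. In the same range Pax9 passed (6.29, adjusted p = 0.0241) and Pax1 did not (2.50, adjusted p = 0.380). Pax3, at 227 CPM in Pbrm1-fl and 144 CPM in control tumours, had a difference of 0.64 (SE 0.21, adjusted p = 0.0558) and passed in the same range (1.28, adjusted p = 0.00910).

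**Figure D5:**
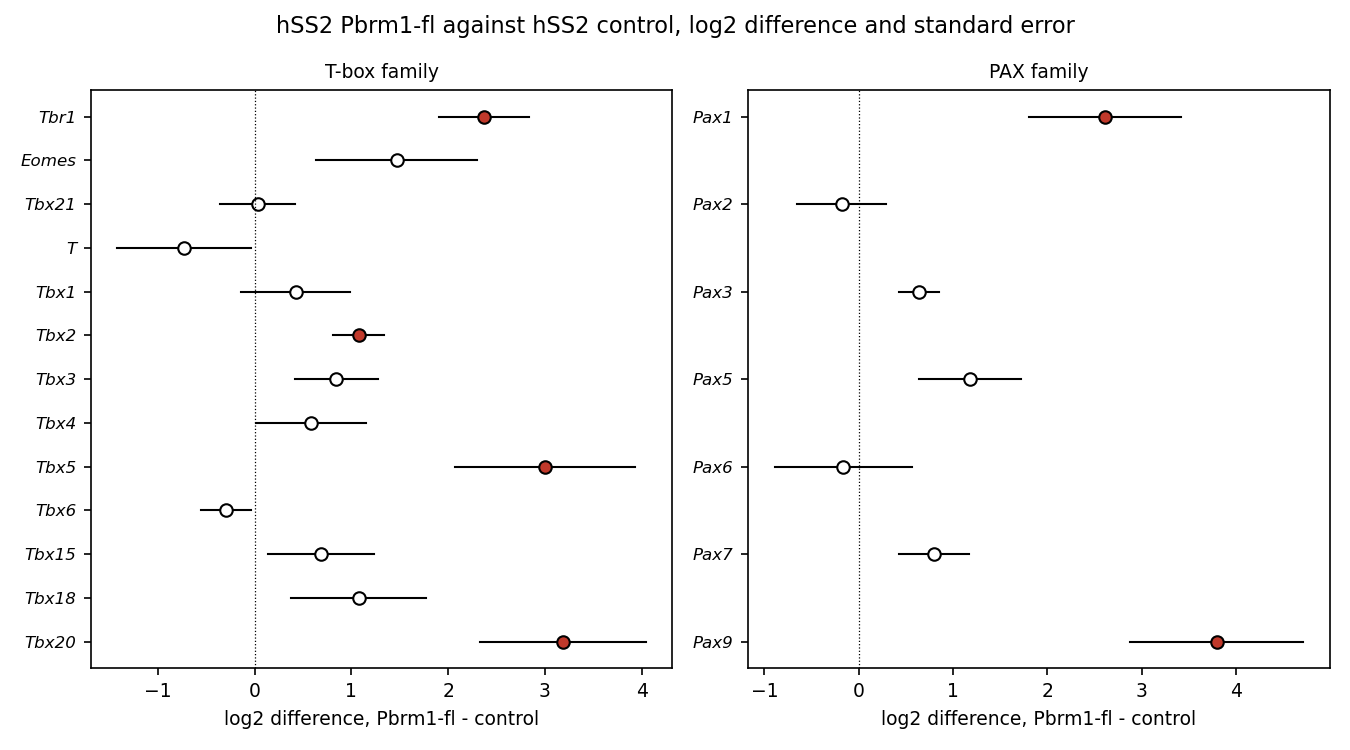
Fitted log2 difference of hSS2 Pbrm1-fl against hSS2 control with its standard error for each tested gene of the T-box family (left) and the PAX family (right), filled where the adjusted p passes 0.05. Tbr1 is filled beside Tbx2, Tbx5, Tbx20, Pax1 and Pax9, and Pax6 lies at -0.16.

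Known partners and targets of PAX6 or Paupar were all measured, 13 of 13. In hSS2 Pbrm1-fl tumours Smarca4, the BAF ATPase (0.47, SE 0.12, adjusted p = 0.0126), Zeb2 (1.11, SE 0.31, adjusted p = 0.0242) and the Notch target Hes1 (0.65, SE 0.19, adjusted p = 0.0296) rose, and Meis2, a homeobox cofactor, fell (-0.69, SE 0.19, adjusted p = 0.0238). These were 4 of the 13, beside 7.35% of all genes called (3.40% higher and 3.95% lower). In Arid1a-fl tumours, where 3.17% of all genes were called, Hipk2 fell (-0.88, SE 0.25, adjusted p = 0.0467). Against controls of the same mouse number range none of the 13 was called in Pbrm1-fl by edgeR, with differences of 0.46 for Smarca4, 1.32 for Zeb2, 0.68 for Hes1 and -0.26 for Meis2 and adjusted p of 0.138 to 0.733 for these 4. In Arid1a-fl against its same-range controls Hipk2 was at -0.75 (adjusted p = 0.123) and Smarca4 passed (0.51, adjusted p = 0.0383). The protein of Trim28, a gene picked after its values were seen, binds Paupar, and its transcript was at 239 and 210 CPM in hSS2 Pbrm1-fl and control tumours and did not pass (0.18, SE 0.13, adjusted p = 0.443). Of 10 tested eye-field and lens genes none was called in Pbrm1-fl tumours by edgeR, with 4 at an unadjusted p under 0.05 (4490 of all 20083 genes). The 2 most abundant were Maf (133 CPM against 140.3 in control) and Prox1 (98.3 against 168), both lens fibre factors, with differences of -0.11 (adjusted p = 0.849) and -0.78 (adjusted p = 0.102). None of these partner or eye genes passed in hSS1.

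Markers of other cell types were measured beside these results. In hSS2 Pbrm1-fl against control, 0 of 10 skeletal muscle, 0 of 9 leukocyte, 0 of 10 endothelial, 0 of 8 peripheral glia and 0 of 9 adipocyte genes were called by edgeR, with 3 glial genes and none of the others at an unadjusted p under 0.05. Marker sums had medians, in Pbrm1-fl and control tumours, of 517 and 10504 CPM for muscle and 726 and 333 for glia. They were 289 and 244 for leukocytes, 379 and 293 for endothelium and 30.3 and 71.6 for adipocytes, with overlapping ranges. All 10 muscle genes were below 0 (median -0.83), but the median was 0.24 against controls of the same mouse number range. The part of these cells in the Tbr1 difference was not tested. Of 12 synovial sarcoma markers Twist1 alone was called and rose (1.19, SE 0.23, adjusted p = 0.00109). Most of these markers leaned the other way, with 8 of the 12 below 0 and a median of -0.28. Of 12 tested neuronal genes Nefm (3.63, SE 0.57, adjusted p = 0.000179) and Stmn2 (1.77, SE 0.50, adjusted p = 0.0253) rose. Both counts of called genes stand beside 7.35% of all genes called and 3.40% higher. Against controls of the same mouse number range Nefm passed (3.28, adjusted p = 0.0448) and Stmn2 did not (1.79, adjusted p = 0.239). The summed level of the 15 neuronal genes was 281 to 437 CPM in hSS2 Pbrm1-fl and 144 to 491 in control tumours, and in hSS1 55.5 to 572 in control and 90 to 208 in Pbrm1-fl tumours, where Th was at 0. Over the 37 hSS2 tumours, group-centred r of this sum was 0.601 with Pax6 (rho 0.509, permutation adjusted p over 18 relations 0.0182 and 0.0474; 0.473 without the 2 farthest tumours; 0.348 to 0.742 within mouse number ranges), 0.527 with Paupar (rho 0.422, adjusted p = 0.0339 and 0.0576; 0.398 without 2; 0.316 to 0.640 within ranges) and 0.126 with Tbr1 (rho 0.119, adjusted p = 0.550 and 0.584; 0.239 without 2). The endothelial sum had r 0.437 with Paupar (rho 0.472, adjusted p = 0.0413 and 0.0474; 0.401 without 2; 0.341 to 0.678 within ranges), and the other 14 of the 18 relations did not pass on r. The part of neuronal or endothelial cells in the levels of Pax6 and Paupar was not tested.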

How the data were processed

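RNA sequencing of whole fresh-frozen tumours gave 1 library per tumour, from ribosomal RNA-depleted, stranded libraries. The authors deposited raw read counts per Ensembl gene, 1 table for 37 hSS2 and 1 for 9 hSS1 libraries, after alignment with STAR 2.7.11 to mm10 and counting with featureCounts 1.6.3. The annotation release, strand setting and multi-mapping rule are not given in the sources used here. Reads were not realigned.

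Groups came from the sample titles, which give a mouse number but no pairing. The labels do not say how tumours were related, so p-values measure the spread between these samples. Genes were fitted with edgeR 4.0.16 (R 4.3.3): filterByExpr on group, TMM scaling and robust quasi-likelihood, hSS2 and hSS1 apart. Only Pax6 and Paupar of the 3 genes passed the filter in hSS1. DESeq2 1.42.0 and other settings were alternatives. Log2 CPM used a prior count of 2, and 2-sided permutation tests used scipy 1.17.1. Fits were tested on simulated data.

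The genes, lists and tests were chosen with earlier results of these data known. Named were the 3 genes, the targeted genes, genes of 12 lists past the threshold (otherwise the 2 most abundant), the 5 genes most like each of the 3, and called genes within 500 kb. Others are said to be picked later. Some list genes that the rule would name are not reported here. Intervals cover counting error only where so stated.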

Additional observations from a re-analysis of the deposited data

Results flagged for a closer look

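Among the 15 group and gene combinations with 4 to 10 tumours, 4 held a tumour far from the rest of its group by Dixon's gap ratio of CPM. Chance does so for about 1 in 20 groups of normally distributed values. CPM can be skewed, as for Pax6 in hSS2 Arid1a-fl (mean 60.8, median 24.8), so that rate may not hold here. Pax6 was at 284 CPM in hSS2 Arid1a-fl tumour 1 and at 286 CPM in hSS1 control tumour 1. Paupar was at 6.56 CPM and 7.31 CPM in the same tumours, so the 4 values come from 2 libraries. Without hSS2 Arid1a-fl tumour 1 the Arid1a-fl difference against control was -0.12 for Pax6 and -0.45 for Paupar on the log2 scale.

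Tbr1 levels in Pbrm1-fl tumours stood on opposite sides of the control median in the 2 backgrounds. All 8 hSS2 Pbrm1-fl tumours lay above the hSS2 control median, with a median of 1.27 CPM, and all 4 hSS1 Pbrm1-fl tumours lay below the hSS1 control median, with a median of 0.237 CPM. The hSS1 groups overlap, since controls 4 and 5 were at 0.0708 and 0.367 CPM. The hSS1 values chose the gene, so they are a description, and the difference between backgrounds was not tested.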

How the results depend on the processing

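Of 492 recomputed log2 differences, 468 kept their direction and their side of the threshold. Tbr1 in hSS2 Pbrm1-fl against control stayed past the threshold in each planned setting (1.81 to 2.71; 1.98 to 2.51 leaving out 1 tumour, in 20 of 21 fits, since without control 13 it failed the filter), and fell to 1.51 without Pbrm1-fl tumours 5 and 6, as did its difference from Arid1b-fl, to 1.43. None of the differences that changed sign passed in any setting. With mean log2 CPM these were 0.22 for Pax6 and 0.32 for Paupar (Pbrm1-fl against control), -0.59 and -0.0478 (Arid1a-fl against control), and 0.81 and 0.37 (Pbrm1-fl against Arid1a-fl). Leaving out 1 tumour gave -0.39 to 0.11 for Pax6 and -0.17 to 0.44 for Paupar in Pbrm1-fl, -0.12 to 1.29 and -0.45 to 1.02 in Arid1a-fl, -0.12 to 0.21 for Tbr1 in Arid1b-fl against control, and -0.73 to 0.42 for Paupar between Pbrm1-fl and Arid1a-fl.

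Pax6 with Tbr1 gave r -0.0190 and -0.16 within control and Pbrm1-fl, -0.24 in mouse numbers of 2000 and over and 0.549 under 1000. Paupar with Tbr1 gave -0.25 in control, -0.0217 at 2000 and over, 0.844 in Arid1a-fl, 0.755 in Arid1b-fl and 0.411 with a prior count of 0.5, where it passed (permutation adjusted p = 0.0399, against 0.0592).

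Counts of called genes moved more. Pbrm1-fl against control had 1476, DESeq2 2282, same-range controls 477. Arid1a-fl had 637, DESeq2 1740, no filter 243, the 2 groups alone 159, same-range controls 1405, and 56 (without Arid1a-fl 8) to 1416 (without Arid1a-fl 6) leaving out 1 tumour, with a change of over 1.5 times in 13 of 21 fits (the other 11 were Arid1a-fl 1, 2, 5 and 7, 161 to 192, and controls 4, 5, 7, 9, 10, 12 and 13, 269 to 1030). Arid1b-fl had 11, DESeq2 18, no filter 27, the 2 groups alone 3, same-range controls 0, and 6 (without Arid1b-fl 5) to 15 leaving out 1. Pbrm1-fl against Arid1b-fl had 878, DESeq2 1575, the 2 groups alone 527, and 574 (without Pbrm1-fl 4) to 1249 leaving out 1. Arid1a-fl against Arid1b-fl had 20, DESeq2 223, library totals 39, the 2 groups alone 12, and 15 to 76 leaving out 1 (32, 56 and 76 without Arid1b-fl 2, Arid1a-fl 6 and Arid1b-fl 6). hSS1 had 1, DESeq2 1244, library totals 0, same-range controls 0, and 0 to 4 leaving out 1 (0 in 7 of 9 fits, 4 without control 5). The cause was not tested. No paired analysis was possible because the labels give the groups no shared replicate numbers. Depth limits Paupar and Tbr1, which often had fewer than 10 reads a tumour.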
